A study of Mus musculus with 3 samples.

Results

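Keratin genes were examined in RNA from skin epithelial cells, and the family was taken as every entry of the deposited table whose symbol is Krt followed by a number and at most 1 letter. This gave 51 genes of 44625 entries, of which 28 were classed as type I and 23 as type II by the number in the symbol. Among the type II genes, Krt74 is annotated in GENCODE M21 as a transcribed pseudogene. The cells came from the back skin of wild-type (WT) mice aged 56 days, in the second telogen, the resting phase of the hair cycle, and were sorted as carrying integrin alpha6 and lacking Sca1. There was 1 group of 3 libraries (replicates 1 to 3), with no treatment, transgene or second genotype named. Levels are TPM, the count of a gene relative to its length, brought to an equal sum in every library. The integrin gene Itga6 had 102, 120 and 112 TPM in replicates 1 to 3. Ly6a, which encodes Sca1, had 3.16, 11.6 and 8.99 TPM. The labels name a collection in duplicate for 3 libraries, so the SDs below measure the spread between libraries, which may be partly technical. The libraries held 29283936 to 39198620 counts, and 8141 of 13664 genes with a mean of at least 1 TPM (59.6%) had their top level in replicate 1.

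Keratins form the intermediate filaments of epithelial cells, and each filament is built from pairs of an acidic type I chain and a basic type II chain. The pair changes with the layer: Krt5 and Krt14 mark basal keratinocytes, Krt1 and Krt10 replace them above the basal layer, and the hair follicle adds its own sets for the outer root sheath, companion layer, inner root sheath and hair shaft. Krt15 marks the bulge, the stem cell niche of the resting follicle. Inner root sheath and hair shaft keratins are made by the growing follicle, which telogen skin largely lacks.

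The start regions of the keratin genes are shown first because they hold a sequence feature that is common in the family. RefSeq promoters (GRCm38.p6) were matched by symbol for 35 of the 51 genes, with 36 windows since Krt13 has a pair. The 80 bases printed run from 60 bases before the start site to 20 bases from the start onward, 5′ to 3′ on the gene's strand, and all 11 genes shown lie on the minus strand. Capitals mark the letters TATANA or ATAAAA starting 40 to 20 bases before the start, on the sense strand. The windows are chr15:101712886-101712965 for Krt5, chr11:99389345-99389424 for Krt10, chr15:101869686-101869765 for Krt77, chr11:99285243-99285322 for Krt24, chr15:101573885-101573964 for Krt75, chr11:99493101-99493180 for Krt23 and chr15:101954268-101954347 for Krt78. They are followed by the abundant keratins without such letters, Krt14 at chr11:100206011-100206090 and Krt79 at chr15:101940305-101940384, and by a pair of genes with 0 counts, Krt12 at chr11:99422240-99422319 and Krt20 at chr11:99438134-99438213.
Krt5: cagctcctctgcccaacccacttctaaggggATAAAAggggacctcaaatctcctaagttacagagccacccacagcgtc
Krt10: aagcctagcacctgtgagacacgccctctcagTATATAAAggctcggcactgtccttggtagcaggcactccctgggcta
Krt77: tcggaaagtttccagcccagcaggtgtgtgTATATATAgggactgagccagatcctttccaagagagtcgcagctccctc
Krt24: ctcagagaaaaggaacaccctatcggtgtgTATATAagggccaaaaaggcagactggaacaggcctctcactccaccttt
Krt75: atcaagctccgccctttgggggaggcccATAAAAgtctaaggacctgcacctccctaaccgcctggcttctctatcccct
Krt23: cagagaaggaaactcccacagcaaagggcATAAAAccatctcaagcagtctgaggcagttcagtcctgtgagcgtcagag
Krt78: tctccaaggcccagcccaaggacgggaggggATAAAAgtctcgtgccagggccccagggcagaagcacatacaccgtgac
Krt14: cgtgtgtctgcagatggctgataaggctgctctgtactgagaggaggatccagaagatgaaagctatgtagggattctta
Krt79: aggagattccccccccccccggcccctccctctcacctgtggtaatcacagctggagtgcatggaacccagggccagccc
Krt12: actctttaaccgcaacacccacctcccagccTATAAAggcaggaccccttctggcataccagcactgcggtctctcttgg
Krt20: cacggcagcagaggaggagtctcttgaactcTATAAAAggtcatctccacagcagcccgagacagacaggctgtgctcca

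Of the 36 keratin windows, 24 (66.7%) held TATANA or ATAAAA at this distance, against 3.97% of all 32851 promoters. The motifs overlap each other, so a window with both counts once. They were chosen after these promoters were seen, so the contrast with all promoters is partly built in and is no independent test. Over the whole promoter of 300 bases and on both strands, TATANA was found in 24 keratin windows (66.7%) and in 24.7% of all promoters, ATAAAA in 22 (61.1%) and in 18.5%, and TATAAA, which is a case of TATANA, in 19 (52.8%) and in 13.6%. The letters TGANTCA were found in 2 windows (5.56%), both of Krt13, and in 7.81% of all promoters. The letters near the start were present at every level of expression: in 7 of the 9 keratins with a promoter and at least 10 TPM, 4 of 8 from 1 to 10 TPM, 8 of 11 under 1 TPM with some counts, and 5 of 7 with 0 counts. The RefSeq start of Krt14 lies 1518 bases inside the gene as GENCODE M21 annotates it, so its window is not the start of the longest annotated transcript. These matches are descriptions of letters, and no binding was measured.

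Of the 51 keratins, 25 had a mean of at least 1 TPM (49.0%), where 30.6% of all entries did. Of these, 15 reached 10 TPM, 11 reached 100 and 6 reached 1000. A further 18 had some counts but a mean under 1 TPM, and 8 had 0 counts in all libraries. Just inside the limit of 1 TPM lay Krt27 with 1.24 ± 0.577 TPM and Krt13 with 1.11 ± 0.471 TPM, and just outside it lay Krt19 with 0.965 ± 0.169 TPM and Krt25 with 0.927 ± 0.409 TPM (SD, n = 3). The family took 4.69%, 6.33% and 6.09% of all TPM in replicates 1 to 3, a mean of 5.70% ± 0.889. As a share of counts this was 3.31% (95% Wilson interval 3.30 to 3.32), 4.77% (4.77 to 4.78) and 4.71% (4.70 to 4.72), where the intervals cover counting error only. Replicate 1 held the smallest share on both scales, beyond counting error. In bulk RNA, fewer cells of a type and less RNA per cell cannot be told apart.

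**Figure D1:**
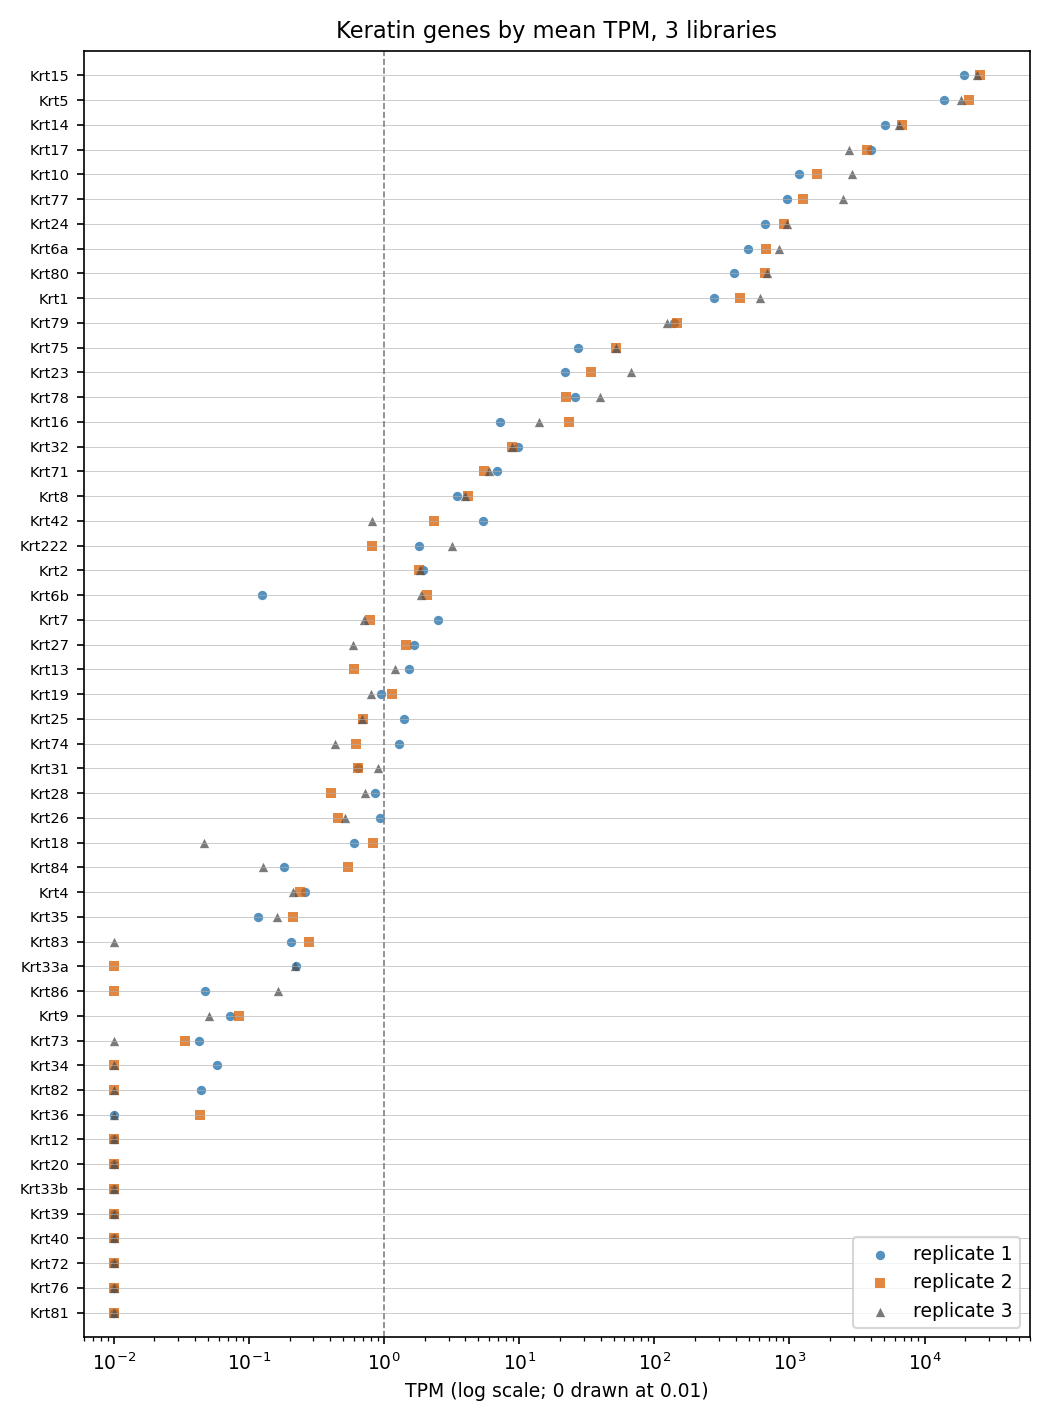
TPM of the 51 keratin genes in each of 3 libraries (circle, square and triangle for replicates 1, 2 and 3), ordered by mean, on a log axis where 0 is drawn at 0.01 and the dashed line is 1 TPM. Levels run from 19607 TPM or more for Krt15 to 8 genes at 0 in all 3.

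The basal and bulge keratins were the most abundant. Krt15 had 19607, 25612 and 24404 TPM in replicates 1 to 3 and ranked 3 among all entries in every library. Krt5, the type II keratin of basal cells, had 13895, 21327 and 18479 TPM. Its type I partner Krt14 had 5128, 6857 and 6423 TPM. All 3 were lowest in replicate 1 and highest in replicate 2. Krt15 exceeded Krt5 in each library, with ratios of 1.41, 1.20 and 1.32, although their ranges over libraries overlap, and the range of Krt5 lay clear above that of Krt14. Krt15 exceeded Krt14 by a ratio of 3.79 ± 0.0456 (SD, n = 3), so these bulge and basal type I chains kept nearly the same proportion while their levels moved. Together the 3 genes made up 82.8% ± 1.99 of keratin TPM.

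Among the 6 keratins listed for the outer root sheath, companion layer and upper follicle, all 6 had a mean of at least 1 TPM, from 3499 TPM for Krt17 to 1.36 TPM for Krt6b. Krt17, a type I keratin of the outer root sheath and of skin appendages, had 4014, 3719 and 2763 TPM, and was the only keratin above 10 TPM that was highest in replicate 1, although it was highest in replicate 2 after median-of-ratios scaling. Krt6a, a type II keratin of the outer root sheath and of the inner bulge layer that holds the old hair, had 490, 672 and 831 TPM. Krt79, found in the infundibulum and sebaceous duct, had 140, 146 and 124 TPM, and its range lay clear of the genes above and below it in the order. Krt75, the companion layer keratin, had 27.5, 51.7 and 52.2 TPM, lowest in replicate 1. Krt16, a keratin of the outer root sheath and of wounded epidermis, had 7.23, 23.5 and 13.9 TPM from 122, 503 and 336 counts. Krt6b, the close copy of Krt6a, had 0.125, 2.07 and 1.89 TPM from 3, 63 and 65 counts, so it was nearly absent from replicate 1 and low in the others.

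Of the 7 suprabasal keratins, 6 had a mean of at least 1 TPM and 5 were highest in replicate 3, beside 20.4% of all genes with at least 1 TPM. Krt10, the type I chain of differentiating epidermis, had 1181, 1588 and 2910 TPM. Krt77, a type II epidermal keratin, had 952, 1255 and 2482 TPM. Krt1, the usual partner of Krt10, had 275, 427 and 604 TPM. These 3 genes kept the same order of libraries, and the ratio of Krt77 to Krt10 was 0.807, 0.790 and 0.853. The range of Krt10 overlaps that of Krt77, while Krt77 exceeded Krt1 by a ratio of 3.50 ± 0.587 (SD, n = 3). Krt80, expressed in differentiated epithelia, had 390, 657 and 683 TPM. Its deposited length of 1774 bases is 0.453 of its longest annotated transcript, and with the longest transcript of each gene its mean was 220 TPM instead of 577. Krt78 had 25.9, 22.2 and 39.7 TPM. Krt2, a keratin of the uppermost living layers in ear and tail epidermis, had 1.95, 1.82 and 1.84 TPM, and Krt9, the keratin of palms and soles, had at most 0.0849 TPM from 2 or 3 counts.

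The 7 listed suprabasal keratins together took 6.03%, 6.24% and 11.04% of keratin TPM in replicates 1 to 3. Without replicate 3 their mean share was 6.14% instead of 7.77%. Of the 8 suprabasal marker genes that are not keratins, 5 were highest in replicate 3 as well, beside 20.4% of all genes with at least 1 TPM. The summed level of the 8 was 7608, 8862 and 9546 TPM in replicates 1 to 3, with none of them at 0. Lor, which encodes the cornified envelope protein loricrin, had 164, 1112 and 1476 TPM, the lowest being replicate 1. Ivl, which encodes the envelope protein involucrin, was highest in replicate 1 with 28.4, 15.7 and 24.5 TPM. Calml3 and Lgals7 were highest in replicate 2, with 1447, 1619 and 1212 TPM for Calml3 and 4223, 4715 and 4558 TPM for Lgals7. The part of suprabasal cells in the level of these keratins was not tested.

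**Figure D2:**
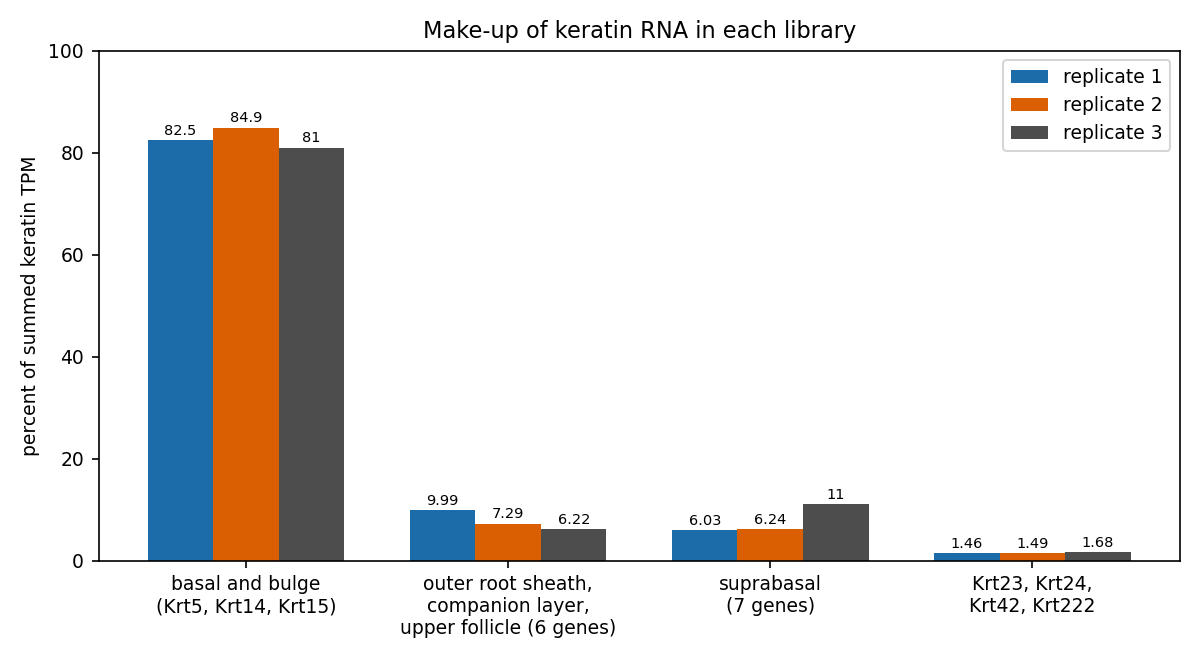
Percent of the summed keratin TPM of each library (bars for replicates 1, 2 and 3) taken by 4 groups of keratin genes; the groups not drawn took under 0.1% in total. Basal and bulge keratins took 81.0 to 84.9%, and the suprabasal group was largest in replicate 3.

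Outside these groups, Krt24 and Krt23, type I keratins for which no compartment was listed, were also abundant. Krt24 had 655, 905 and 951 TPM, which placed it seventh in the family. Krt23 had 21.7, 34.0 and 67.7 TPM and differed by 1.60 between its lowest and highest library on the log2(TPM + 1) scale. Krt42, a type I keratin of the nail in mouse, had 5.36, 2.36 and 0.809 TPM from 102, 57 and 22 counts, the reverse order of libraries. Krt222, a short keratin-like gene at the end of the type I cluster, had 1.80, 0.821 and 3.21 TPM.

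Simple epithelial keratins, which line glands and internal epithelia and mark Merkel cells, were low. Krt8 had 3.50, 4.21 and 3.99 TPM, and its partner Krt18 had 0.596, 0.835 and 0.0463 TPM from 9, 16 and 1 counts. Krt7 had 2.51, 0.787 and 0.708 TPM, with a deposited length 1.72 times that of its longest annotated transcript. Krt19, often used as a marker of bulge cells, had 0.950, 1.14 and 0.804 TPM from 19, 29 and 23 counts, so that Krt15 exceeded it by a ratio of at least 20634 in each library. Krt20, a keratin of Merkel cells, was at 0 counts throughout, a level of 0.144 TPM or less. Of the 8 Merkel cell markers that are not keratins, 8 lay under 1 TPM, their summed level was 0.558 to 1.29 TPM, and the defining factor Atoh1 was at 0 counts, as were Isl1 and Pou4f3.

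Keratins of the growing follicle were at or near the limit of detection, with a pair of exceptions. Of 8 inner root sheath keratins, Krt71, a type II chain of all inner root sheath layers, had 6.88, 5.52 and 5.96 TPM, and Krt27 was the only other one above a mean of 1 TPM. Krt25, Krt26, Krt28 and Krt74 had means from 0.635 to 0.927 TPM, Krt73 had 1, 1 and 0 counts, and Krt72 had 0 counts. Of 14 hair shaft keratins, Krt32, a type I keratin of the hair cuticle, had 9.86, 8.78 and 8.89 TPM from 183, 207 and 236 counts, and the other 13 had means of 0 to 0.731 TPM. Krt33b, Krt39, Krt40 and Krt81 were at 0 counts throughout, at levels of at most 0.176, 0.170, 0.211 and 0.150 TPM. Krt85 was not analysed here. Of the 57 keratin-associated protein genes (Krtap), which encode the matrix between hair filaments, 51 had 0 counts, and Krtap17-1 was the highest with 35.6, 18.8 and 22.5 TPM, genes chosen after their values were seen.

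Genes of the hair matrix and shaft that are not keratins ranged from low to clearly present beside these low hair keratins. Of 8 listed, 6 had a mean of at least 1 TPM, beside 30.6% of all entries. The highest were Dlx3 at 42.0 ± 13.4 TPM and Hoxc13, a known activator of hair keratin genes, at 38.5 ± 6.38 TPM (SD, n = 3). Msx2 had a mean of 14.8 TPM, while Tchh had 5.03, S100a3 3.59, Lef1 1.67 and Foxn1 0.980 TPM. The summed level of the 8 was 93.8 to 125 TPM, and Padi3 had 1 count in each library. The mucosal and corneal keratins had the smallest summed level of the listed groups, 0.841 to 1.79 TPM, although the median member of the hair shaft list was lower. Their means were 1.11 TPM for Krt13 and 0.238 TPM for Krt4, and Krt12 and Krt76 had 0 counts.

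The order of the abundant keratins was partly resolved. Of the 14 neighbouring pairs among the 15 keratins above 10 TPM, 5 did not overlap in their ranges over the libraries: Krt5 lay above Krt14, Krt14 above Krt17, Krt77 above Krt24, Krt1 above Krt79 and Krt79 above Krt75. The gap between Krt77 and Krt24 was narrow, from 952.4 TPM in replicate 1 to 951.2 TPM in replicate 3. Median-of-ratios scaling, which lowers replicate 1 and raises replicate 3, would close it. The other 9 pairs overlapped in range. Of these, 5 (Krt15 over Krt5, Krt10 over Krt77, Krt24 over Krt6a, Krt6a over Krt80 and Krt80 over Krt1) had the same order within each of the 3 libraries, and 4 had it in 2 of 3. The order of Krt80 and Krt1 depends on the gene length used. With the longest transcript of each gene their means were 220 and 286 TPM, the reverse order.

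Spread between libraries was then compared with that of other genes. The median SD of log2(TPM + 1) over the 3 libraries was 0.41 for the 25 keratins with at least 1 TPM and 0.29 for all 13664 such genes. It was 0.30 for the 6 keratins above 1000 TPM, where the 134 genes in that range had 0.16, and 0.38 against 0.17 for the 5 keratins and 1085 genes from 100 to 1000 TPM. From 10 to 100 TPM it was 0.65 for 4 keratins and 0.23 for 6940 genes, while from 1 to 10 TPM the 10 keratins had a lower median, 0.37, than the 5505 genes, with 0.42. Krt42 had the highest SD, 0.91, and Krt2 the lowest, 0.04. Without replicate 1 the median of the 25 keratins was 0.17, and without replicates 2 and 3 it was 0.42 and 0.32. The same medians over all genes were not computed, so these values have no comparison.

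Libraries were ranked within each keratin. Of the 15 keratins above 10 TPM, 9 peaked in replicate 3, while 5 peaked in replicate 2 and 1 in replicate 1, where 20.9%, 22.5% and 56.5% of all 8159 such genes were. The 9 were Krt10, Krt77, Krt24, Krt6a, Krt80, Krt1, Krt75, Krt23 and Krt78. Among all 25 keratins with at least 1 TPM the counts were 10, 7 and 8 for replicates 3, 2 and 1, beside 20.4%, 20% and 59.6% of all genes. The median gene of replicate 1 lay 0.19 above the geometric mean of the libraries on the log2 scale, and those of replicates 2 and 3 lay at -0.08 and -0.10. After division by these factors, the same 9 of 15 keratins were highest in replicate 3, where 33.6% of all genes then were, 6 were highest in replicate 2 (31.9%) and none in replicate 1 (34.5%). Over the 25 keratins the rescaled counts were 13, 9 and 3, beside 30.5%, 27.9% and 41.6% of all genes. Before rescaling, 14 of the 25 were lowest in replicate 1, beside 25.3% of all genes. Of the 25 keratins, 5 were over 1.5 times higher in replicate 3 than in both others (Krt10, Krt77, Krt23, Krt78 and Krt222), beside 4.11% of all genes.

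**Figure D3:**
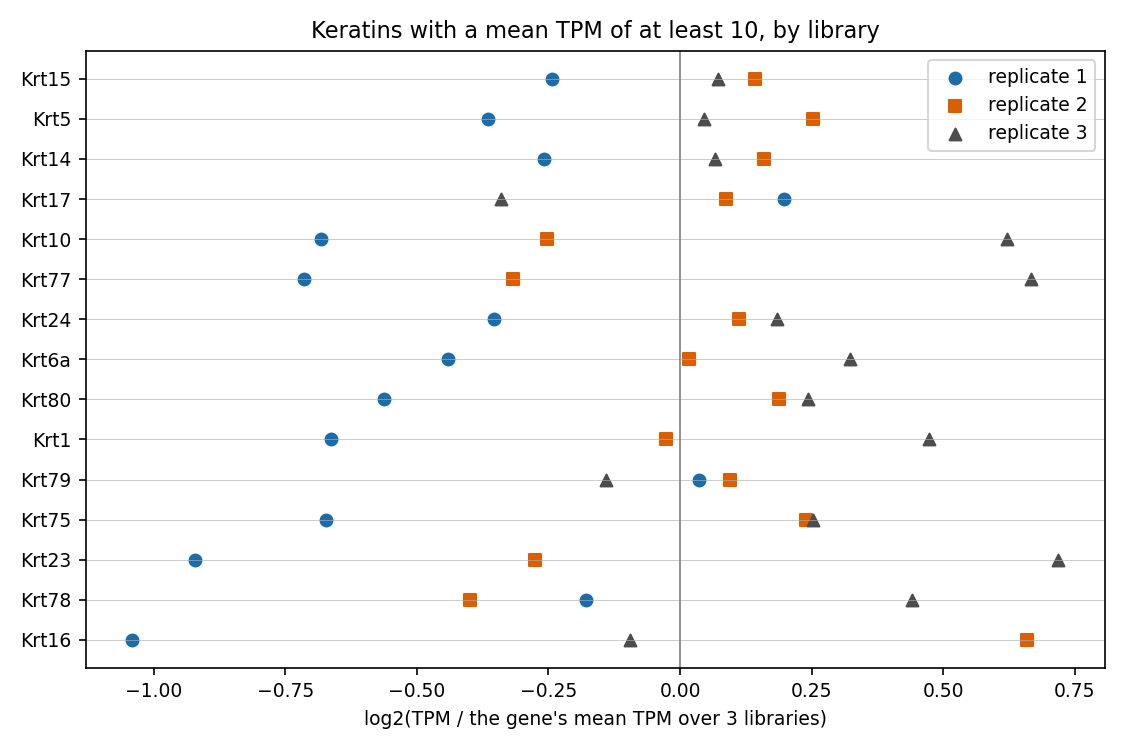
log2 of TPM over the gene's own mean TPM, for the 15 keratins with a mean of at least 10 TPM, with a symbol for each of 3 libraries. Triangles (replicate 3) lie rightmost for 9 genes, squares (replicate 2) for 5, and the circle (replicate 1) for Krt17.

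Type I chains outweighed type II chains. Summed type I keratins had 30640, 38757 and 37553 TPM and summed type II keratins 16213, 24575 and 23309 TPM. The log2 ratio of type II to type I was -0.92, -0.66 and -0.69, a mean of -0.75 ± 0.14, below 0 in 3 of 3 libraries (two-sided exact sign-flip permutation p = 0.25, the smallest p that 3 libraries allow). Krt15 alone was 40.8% ± 0.928 of keratin TPM (SD, n = 3). Without Krt15, the remaining type I keratins sum to less than the type II keratins in each library.

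For 7 pairs of usual partners the type II to type I ratio was read on the log2(TPM + 1) scale. Krt5 exceeded Krt14 by 1.53 ± 0.10, and this ratio had the smallest spread of the 7. Krt1 lay below Krt10, with a mean of -2.09 ± 0.19. Krt8 exceeded Krt18 by 1.75 ± 0.44, Krt6a exceeded Krt16 by 5.49 ± 0.62, and Krt71 exceeded Krt25 by 1.90 ± 0.17. Krt6a and Krt75 lay below Krt17, by means of -2.41 ± 0.65 and -6.33 ± 0.74. Each of the 7 had the same sign in all 3 libraries (exact sign-flip permutation p = 0.25 each, Benjamini-Hochberg adjusted 0.25, n = 3), so none can pass a threshold of 0.05 in this design. For the pairs of low genes the size depends on the pseudocount: with 0.1 and 5 TPM in place of 1, Krt8 to Krt18 was 3.13 and 0.70, and Krt71 to Krt25 was 2.66 and 0.91.

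The genes were placed on the chromosomes through GENCODE M21 (GRCm38), in which all 51 identifiers were found. Chromosome 11 held 27 type I keratins from Krt222 at 99232761 to Krt42, which ends at 100269871. Chromosome 15 held the 23 type II keratins and, at the end of the cluster beside Krt8, the type I gene Krt18, from 101347444 to 102032027. Abundant and silent keratins were interleaved in both clusters. Krt15 (100131758 to 100135928, minus strand) and Krt19 (100140810 to 100148665) are separated by 4881 bases, yet had mean levels of 23208 and 0.965 TPM. Krt10 lies between Krt28 and Krt12, with means of 0.660 and 0 TPM, and Krt77 lies between Krt1, at 435 TPM, and Krt76, at 0. Krt75, Krt6b, Krt6a and Krt5 follow each other, and Krt6b was 1.36 ± 1.07 TPM (SD, n = 3) at 9622 bases from Krt6a. The longest run of genes under 1 TPM was from Krt39 to Krt31 on chromosome 11, a run of 6 that spans the gap of 468036 bases between Krt40 and Krt33a.

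**Figure D4:**
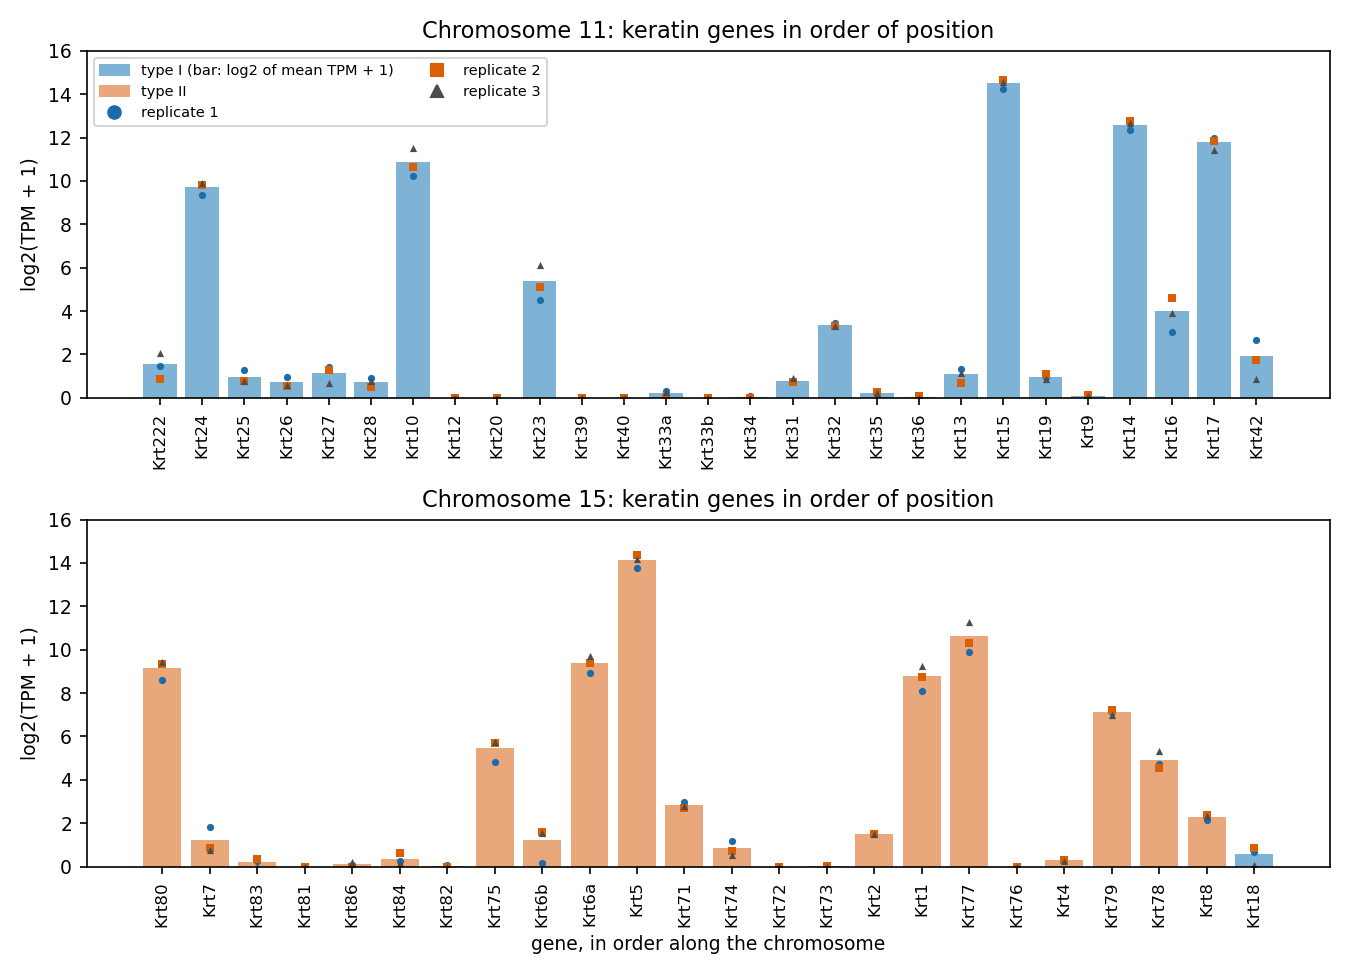
Keratin genes in their order along chromosome 11 (27 genes) and chromosome 15 (24 genes), evenly spaced, with bars at log2 of mean TPM + 1 (blue for type I, orange for type II) and a symbol for each library. Tall bars such as Krt15 stand beside near-empty ones such as Krt19.

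Near-identical copies limit some values. With 50-base windows of the longest transcript, 15 of 51 keratins had over 5% of windows that also occur in a transcript of another gene, and 22 had none. The share was 50.1% for Krt6b and 45.5% for Krt6a, mostly shared with each other, 43.5% for Krt81, 43.3% for Krt86, 37.6% for Krt16, 36.9% for Krt83, 26.9% for Krt8, 14.4% for Krt14, 8.52% for Krt5, 3.99% for Krt17 and 0.666% for Krt15. Krt10, Krt77, Krt24, Krt1, Krt80, Krt79 and Krt19 had none. How reads shared by copies were counted is not given in the sources used here, so the levels of Krt6a, Krt6b, Krt16, Krt8, Krt81, Krt83, Krt86, Krt31, Krt33a, Krt33b and Krt34 are uncertain, as are the ratios with Krt6a, Krt16 or Krt8 and the upper limits for Krt81 and Krt33b. Krt27 (11.1%) and Krt25 (10.9%) share windows mostly with each other. The levels of Krt14, Krt5, Krt27 and Krt25, also over 5%, carry the same doubt. So do the ratios of Krt5 to Krt14 and of Krt71 to Krt25. The row with the symbol Krt83 has the identifier that GENCODE M21 names Krt87. A further 3 rows with other symbols are named as keratins there, with means of 0.901 TPM for 4732456N10Rik (Krt90), 0.0749 TPM for 5430421N21Rik and 0 for 1700011A15Rik.

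The authors' deposited table also holds a fold change per gene, read here as relative to libraries whose columns are named Bulge and were not used. Its direction was read from the counts: of 2555 genes at 0 counts in all 3 libraries with a fold change in the authors' deposited table, 2555 had a negative one. A positive value therefore stands for more RNA in the 3 libraries described here. Of the 51 keratins, 35 had an adjusted p-value in the authors' deposited table. Of these 35, 17 were higher (48.6%) and 4 lower (11.4%) at an adjusted p under 0.05, where 23.6% of 20274 genes were higher and 32% lower. Of the other keratins, 8 had a fold change without an adjusted p and 8 had neither, so a share over these 35 does not describe the family as a whole. Among the 25 keratins with at least 1 TPM, the authors' deposited table called 17 higher and 2 lower, beside 35.1% and 25.6% of 13506 genes. That limit was set on the 3 libraries described here and not on the Bulge libraries, so it favours genes that are higher here. It drops Krt25 and Krt26, both called lower. Without the limit, the median log2 fold change in the authors' deposited table was 1.22 for the 35 keratins and -0.36 for all 20274 genes. With the limit it was 1.76 for the 25 keratins and 0.25 for all 13506.

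The median log2 fold change in the authors' deposited table was 2.49 for the suprabasal list, 1.18 for the basal and bulge list and 1.13 for the outer root sheath and upper follicle list. In the lists of mostly low genes it was 2.01 (mucosal and corneal), 0.62 (inner root sheath), 0.59 (simple epithelial) and 0.29 (hair shaft). Single keratins ranged widely within these lists. In the authors' deposited table Krt79 had a log2 fold change of 4.79 (adjusted p = 3.97e-48), Krt17 3.86 (adjusted p = 3.94e-66), the unlisted Krt42 4.42 (adjusted p = 0.000547), Krt78 3.65 (adjusted p = 4.71e-20) and Krt10 3.29 (adjusted p = 1.65e-06). Krt77, Krt1 and Krt23 had log2 fold changes of 2.59, 2.49 and 2.45 in the authors' deposited table. The suprabasal markers that are not keratins moved with them, 7 of 8 being higher in the authors' deposited table with a median log2 fold change of 2.85. This stands beside 35.1% and 0.25 for all genes with at least 1 TPM, and 23.6% and -0.36 for all 20274 genes. Their part in the keratin values was not tested. Of the basal and bulge keratins, Krt14 had 2.36 (adjusted p = 9.30e-20), Krt5 1.18 (adjusted p = 4.83e-05) and Krt15 1.03 (adjusted p = 0.000356) in the authors' deposited table.

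The remaining called keratins went in both directions. Krt6a and Krt75 of the follicle and the suprabasal Krt80 had log2 fold changes of 1.15, 1.12 and 1.08 in the authors' deposited table, all called higher. Krt32 of the hair shaft and Krt71 of the inner root sheath had 2.38 and 2.14, called higher in the authors' deposited table at low levels of RNA. The simple epithelial Krt8 was also higher, with 1.64 (adjusted p = 0.0245 in the authors' deposited table). The 4 keratins called lower in the authors' deposited table were Krt25 with -3.33 (adjusted p = 1.14e-10), Krt26 with -3.02 (adjusted p = 1.03e-08), Krt6b with -2.76 (adjusted p = 0.000411) and Krt222 with -2.49 (adjusted p = 3.01e-06). Krt25 and Krt26 are neighbouring inner root sheath genes, while Krt27 and Krt28, next in the cluster, had 0.96 (adjusted p = 0.458) and 0.62 (adjusted p = 0.674) in the authors' deposited table. Krt24 had 0.12 (adjusted p = 0.714), Krt16 -0.17 (adjusted p = 0.794) and Krt19 -1.07 (adjusted p = 0.234) in the authors' deposited table, and none of them was called.

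**Figure D5:**
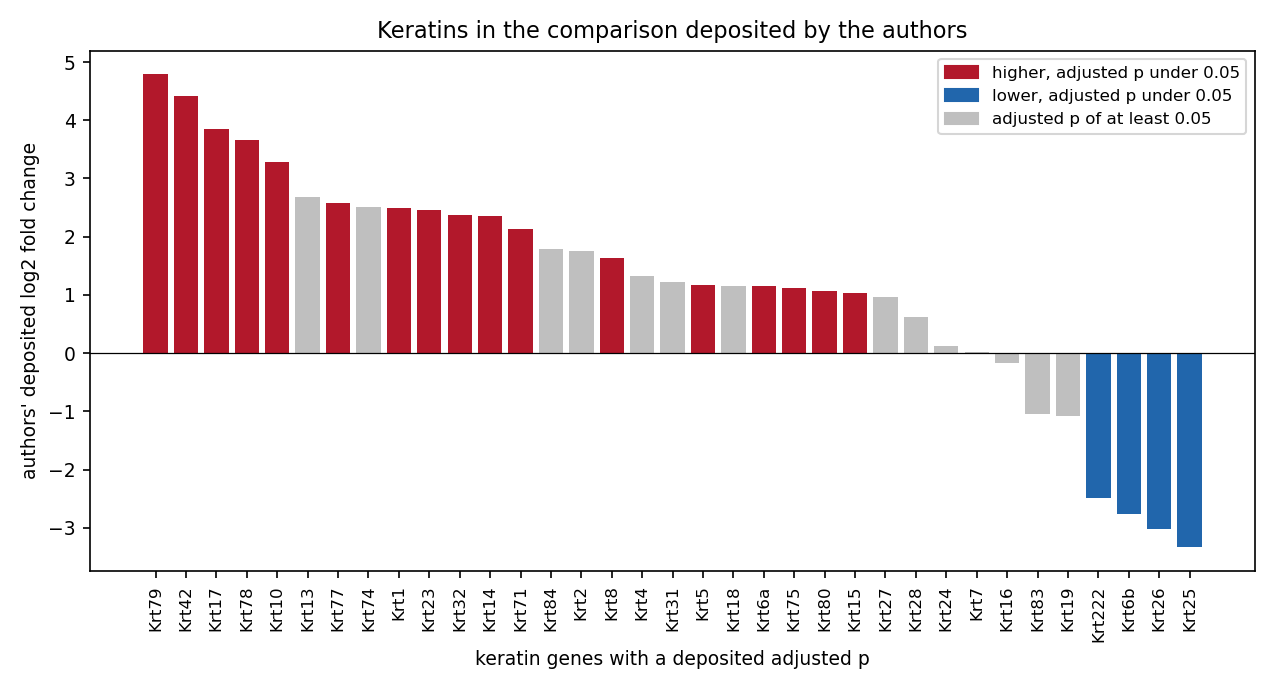
log2 fold change from the authors' deposited table for the 35 keratins with an adjusted p, in falling order; red bars are the 17 called higher, blue bars the 4 called lower and grey bars the 14 not called. Krt79 is highest at 4.79 and Krt25 lowest at -3.33.

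Proteins that bind or cross-link keratins and factors that control their genes were listed with them. Of the 28 in the table, 27 had a mean of at least 1 TPM, and the authors' deposited table called 11 higher, 5 lower and 12 neither. The share higher was close to the 35.1% of all genes with at least 1 TPM, a limit that favours genes higher here. Over all 20274 genes 23.6% were higher. Their median log2 fold change in the authors' deposited table was 0.31. Higher were Sfn, the 14-3-3 protein of stratified epithelia, with 3.13, Hspb1, a small heat shock protein, with 2.34, and Pkp3, a desmosomal plaque protein, with 1.86 in the authors' deposited table. Lower were Trp63, the master factor of stratified epithelium, with -1.47 and Dst, whose epithelial form anchors keratin at hemidesmosomes, with -1.46 in the authors' deposited table.

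Each gene in the authors' deposited table also carries a whole number headed H3K27me3, a histone mark of repressed chromatin, with no unit or source cells stated. Of the 51 keratins, 5 had a value above 0 (9.80%), beside 8.06% of all entries. The largest was that of Krt18 with 15403, followed by its neighbour Krt8 with 5567, Krt83 with 3196, Krt9 with 1711 and Krt77 with 1293 in the authors' deposited table. Krt77 was among the most abundant keratins, while the other 4 lay under 4 TPM. Of the 26 keratins under 1 TPM, 3 had a value above 0 (11.5%), beside 10.2% of 30961 such entries.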

How the data were processed

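Polyadenylated RNA was measured in 3 libraries of 1 group, and all values came from 1 deposited table. Per the file headers, it holds whole-number counts per gene and TPM. Dividing counts by the gene length column and rescaling gave the deposited TPM to within 4.72e-06. The authors also deposited a log2 fold change, its adjusted p-value and a score that was not used further. The submitters' processing notes name FastQC, SAMtools, TopHat2, DESeq2 and DESeq, and the builds mm10 and GRCm38. The counting tool and strand setting are not given in the sources used here. Another 6 columns of per-sample values match no sample and were not used.

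Python 3.11.15, numpy 2.4.6, pandas 2.3.3 and scipy 1.17.1 were used. Levels are TPM, log values use a pseudocount of 1 TPM, and detection means a mean of at least 1 TPM. Keratins with at least 10 TPM, those called in the deposited comparison those just inside and outside 1 TPM and the textbook keratin of each compartment were named. A count of 0 allows up to 3 counts. The statistics were tested on simulated counts. Members, lists and tests were chosen with earlier results of these data known, and the motifs TATANA and ATAAAA after the promoters were seen. No contrast between groups could be fitted with 1 group. Alternatives were other limits, pseudocounts, scalings and gene lengths, counts in place of TPM, and each library left out.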

Additional observations from a re-analysis of the deposited data

How the results depend on the processing

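For the main results, 76 alternative values kept their direction and stayed within their limits and 5 did not. Many of the 76 were fixed in advance, as described below, and could not have failed. The count is therefore no measure of how robust the results are. As a share of counts instead of TPM, keratins took 4.26% of the library instead of 5.70%. With only keratins of at least 1 TPM, 2 instead of 4 were lower in the authors' deposited table. The number of keratins highest in replicate 1 fell from 8 to 3 under upper quartile scaling, to 3 with median-of-ratios factors and to 1 among keratins of at least 10 TPM, and the causes were not tested beyond the construction of each setting. Leaving out each library in turn moved the number of detected keratins between 23 and 27, the keratin share between 5.39% and 6.21%, the log2 ratio of type II to type I between -0.80 and -0.67, and the median SD of keratins between 0.17 and 0.42. The 7 partner ratios kept their sign with counts in place of TPM. Under other pseudocounts and without each library their sign was fixed in advance, so those settings do not test it. The sign of the type II to type I ratio without each library was fixed in the same way, since all libraries shared it. Leaving out a single library also cannot move the mean keratin share by as much as its SD, so those values are a weak test. No paired analysis was possible because the labels give 1 group. At these depths keratins under about 0.2 TPM rest on 0 to a few counts, and their order cannot be read.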
